A study of Mus musculus with 2 samples.

Results

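The mitochondrial genome is a small circular DNA that is transcribed apart from the nucleus, and its transcripts were identified here as every record whose gene symbol starts with mt-. There were 37 such genes among 55487 records with a gene symbol, and they fell into 3 classes: 13 protein-coding genes, 2 rRNA genes and 22 tRNA genes. All 13 protein-coding and both rRNA genes reached 1 TPM in at least 1 library, whereas all 22 tRNA genes were listed at 0 in both. Expression had been profiled by RNA sequencing in LPC-HRas cells, a mouse liver tumour line that the labels describe as hepatocellular carcinoma. The cells were infected either with lentivirus carrying shETV4, a hairpin against the transcription factor gene Etv4, or with lentivirus carrying the control hairpin shRFP. There was 1 library of total RNA per group, so no difference has a replicate check and no test or error could be given. Time after infection, the number of hairpin sequences and whether the cells are 1 clone are unstated in the sources used here.

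The mammalian mitochondrial genome encodes core subunits of respiratory complexes I, III and IV and of the ATP synthase, together with the rRNAs and tRNAs of the mitochondrial ribosome. Both strands are transcribed as long precursors by the polymerase Polrmt with the DNA-packaging factor Tfam. The tRNAs lie between the other genes and are cut out at both ends, which releases the rRNAs and mRNAs. The mRNAs then receive short poly(A) tails, which also complete stop codons that the genome leaves unfinished. Fragments of mitochondrial DNA have been copied into nuclear chromosomes during evolution, where they are annotated as pseudogenes.

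Values are TPM, abundances scaled to transcript length and to the total of the library, which allow levels of different genes to be set side by side but keep no record of depth. A difference is log2(TPM + 1) of the shETV4 library less that of the shRFP library, and genes at 1 or above were called higher, those at -1 or below lower, which is 2-fold on that scale. A gene counted as measured at 1 TPM or more in either library, which 12968 named records met. Etv4 itself was at 16.2 TPM in the shETV4 library and 73.2 TPM in the shRFP library, a difference of -2.11. None of 8 hepatocyte markers reached 1 TPM in either library, and Alb, which encodes albumin, had a listed value of 0 with either hairpin. Of 6 biliary and progenitor markers 3 were measured, among them Spp1 at 476 TPM with shETV4 and 423 TPM with shRFP. Of other cell types, 4 of 6 fibroblast and stellate markers, 1 of 6 leukocyte markers and 1 of 4 endothelial markers were measured. Summed over all markers listed, measured or not, the fibroblast and stellate list was at 855 TPM with shETV4 and 634 TPM with shRFP. The leukocyte list summed to 2.12 TPM with shETV4 and 1.07 TPM with shRFP, and the endothelial list to 19.4 TPM with shETV4 and 13.9 TPM with shRFP. The part of these cell types in the results was not tested.

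Near-identical nuclear records exist for 7 of the 13 protein-coding genes and bear on their values, so those sequences come first. A block of 7 annotated pseudogenes on the minus strand of chromosome 1, from 24611535 to 24616197 on GRCm38, copies part of the mitochondrial genome from mt-Co1 to mt-Nd4. In alignments of the GENCODE M21 transcripts 5 of these records were identical to their mitochondrial counterpart over the whole aligned length. Gm28438, the copy of mt-Nd3 (a membrane subunit of complex I), differed at 1 of 345 bases, T3C. Gm29216, the copy of the 3′ part of mt-Co1 (the catalytic subunit of cytochrome c oxidase), differed at 1 of 483 aligned bases, A1066T. Positions are counted from 1 at the first base of the mitochondrial gene, with its base first and the base of the nuclear record after it. The stretches that hold these differences are shown because a read of the surrounding sequence fits both records, and capitals mark the bases that differ.
mt-Nd3, chrM:9459-9482, plus strand: atTaacctgtacactgttatcttc
Gm28438, chr1:24613096-24613119, minus strand: atCaacctgtacactgttatcttc
mt-Co1, chrM:6390-6414, plus strand: ggaAttgttttatccaactcatccc
Gm29216, chr1:24616164-24616188, minus strand: ggaTttgttttatccaactcatccc

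Other nuclear copies carry more differences. Gm13340 on chromosome 2 spans all 1545 bases of mt-Co1 with 37 mismatches, an identity of 97.6%, and the first of the densest stretches of 43 bases holds 4 of them: G696A, T699C, G717A and C720T.
mt-Co1, chrM:6005-6047, plus strand: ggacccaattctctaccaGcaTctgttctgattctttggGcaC
Gm13340, chr2:22588928-22588970, minus strand: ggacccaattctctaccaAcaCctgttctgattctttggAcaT

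Mitochondrial genes also share sequence with each other. mt-Atp8 and mt-Atp6, which encode subunits of the membrane part of the ATP synthase, overlap by 43 bases on the same strand and are known to be carried on 1 mRNA. In the overlap the capitals mark the start codon of mt-Atp6 and the stop codon of mt-Atp8.
mt-Atp8 and mt-Atp6, chrM:7927-7969, plus strand: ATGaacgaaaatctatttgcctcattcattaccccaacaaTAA

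mt-Nd4l and mt-Nd4, a further pair carried on 1 mRNA, overlap by 7 bases. mt-Nd5 and mt-Nd6 overlap by 14 bases on opposite strands. The sources used here do not give the strand setting of the counting, so reads of mt-Nd6 and of the antisense strand at its locus cannot be told apart. Of the 36 pairs of neighbouring genes 9 overlap and a further 12 abut with no base between them. mt-Co3, mt-Nd4 and mt-Cytb have annotated lengths that leave a remainder of 1 base after whole codons, and in each that last base is a T, a stop codon left for the poly(A) tail to complete.

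The protein-coding class was lower as a whole in the shETV4 library, with 12 of its 13 genes below 0 and a median difference of -0.43, against -0.10 over all measured genes, of which 58.3% lay below 0. Its genes summed to 18965 TPM, or 1.90% of the library, with shETV4 and to 28868 TPM, or 2.89%, with shRFP, so the sum with shETV4 was 0.657 times that with shRFP. No gene of the class reached 2-fold in either direction. Among all measured genes 3.39% were called higher and 7.06% lower. At 1.5-fold 5 of the 13 were lower, mt-Nd1, mt-Cytb, mt-Atp8, mt-Nd4 and mt-Atp6, against 20.0% of all measured genes. In RNA from a whole culture, fewer cells with a transcript and less of it in each cell cannot be told apart.

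Among the 7 subunits of complex I, which takes electrons from NADH, mt-Nd1 had the lowest difference of the class. It was at 1359.6 TPM in the shETV4 library and 2643 TPM in the shRFP library, a difference of -0.96 that lies just inside 2-fold. mt-Nd2 was at 989 TPM with shETV4 and 1334 TPM with shRFP, a difference of -0.43. mt-Nd4 was at 781 and 1262 TPM in the shETV4 and shRFP libraries, a difference of -0.69, although mt-Nd4l, which shares its mRNA, was at 444 and 549 TPM, a difference of -0.30. Both genes of this shared mRNA were therefore lower with shETV4, but by unequal amounts on the records as deposited.

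mt-Nd5 and mt-Nd3 lay near 0 on their own records. With the chromosome 1 record described below added, mt-Nd3 was instead at -0.73. mt-Nd5, the largest of the complex I subunits on this genome, was at 791 TPM with shETV4 and 876 TPM with shRFP, and mt-Nd3 was at 358 TPM with shETV4 and 368 TPM with shRFP, differences of -0.15 and -0.04. mt-Nd6 was the one protein-coding gene above 0, at 821 TPM with shETV4 and 784 TPM with shRFP, a difference of 0.07. It is also the one protein-coding gene on the minus strand of the annotation, whose precursor carries few other genes.

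mt-Cytb, the cytochrome b of complex III and the one subunit of that complex on this genome, was at 1086 TPM in the shETV4 library and 1986 TPM in the shRFP library, a difference of -0.87. Of the complex IV subunits, mt-Co1 was at 4813 TPM with shETV4 and 6504 TPM with shRFP, a difference of -0.43. mt-Co3 was at 465 TPM with shETV4 and 540.2 TPM with shRFP, a difference of -0.22. mt-Co2, which receives electrons from cytochrome c, was the lowest protein-coding gene in both libraries on its own record, at 100.3 TPM with shETV4 and 126 TPM with shRFP, a difference of -0.33. With the chromosome 1 records described below added, mt-Co2 was instead second highest of the class. The levels of the 3 complex IV genes then lay closer together, at 2615 to 5745 TPM with shETV4 and 4218 to 8384 TPM with shRFP, and their differences further apart, from -0.40 for mt-Co1 to -0.69 for mt-Co3.

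mt-Atp8 had the highest level of the class, at 6752 TPM in the shETV4 library and 11575 TPM in the shRFP library, a difference of -0.78. It ranked 6 with shETV4 and 1 with shRFP among all named records. mt-Atp6, read from the same mRNA, was at 206 TPM with shETV4 and 323 TPM with shRFP, a difference of -0.65. mt-Atp8 is also the shortest protein-coding gene, at 204 bases, and TPM of such short transcripts depends on how the effective length was set, which the sources used here do not give.

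**Figure D1:**
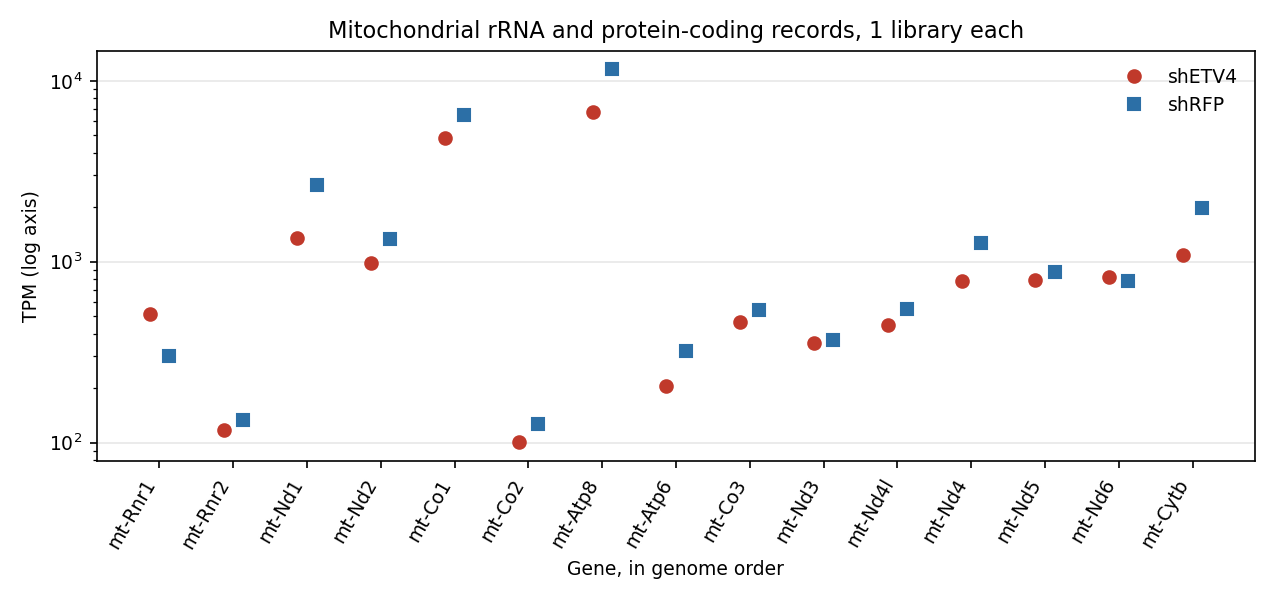
TPM on a log axis for the rRNA and protein-coding genes of the mitochondrial genome in genome order, with 1 point per library (circles shETV4, squares shRFP). On these records alone mt-Atp8 and mt-Co1 lie highest and mt-Co2 lowest of the protein-coding genes in both libraries, and shETV4 lies below shRFP for all but mt-Rnr1 and mt-Nd6.

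On the records alone, the order of levels was largely shared by the libraries. mt-Atp8, mt-Co1, mt-Nd1, mt-Cytb and mt-Nd2 were the highest 5 in that order in both, and mt-Nd3, mt-Atp6 and mt-Co2 the lowest 3. The ratio of the highest to the lowest gene was 67.3 with shETV4 and 91.8 with shRFP. As shares of the class total, which do not depend on the scale of the library, mt-Atp8 held 35.6% with shETV4 and 40.1% with shRFP. mt-Co1 held 25.4% with shETV4 and 22.5% with shRFP, and mt-Nd6 held 4.33% with shETV4 and 2.71% with shRFP. Weighted by length, so that a long transcript counts by its bases, mt-Co1 held the largest share, 46.0% with shETV4 and 43.0% with shRFP, and mt-Atp8 held 8.52% with shETV4 and 10.1% with shRFP. Across the 13 genes the rank correlation of the difference was 0.35 with position along the genome, -0.19 with length and -0.12 with GC content; these points share their libraries and, in part, their precursor RNA.

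The chromosome 1 records carried much of the signal that fits mitochondrial mRNAs. The 7 records summed to 13717 TPM, or 1.37% of the library, with shETV4 and to 21894 TPM, or 2.19%, with shRFP. Set against the summed TPM of the 7 mitochondrial genes they copy, this was 191% with shETV4 and 226% with shRFP. Gm28661, which matches mt-Co2 without a mismatch over 681 of its 684 bases, was at 5669.8 TPM with shETV4 and 8294 TPM with shRFP. It took 98.3% of the TPM of both records together with shETV4 and 98.5% with shRFP. The sources used here do not say how the authors divided reads between records that cannot be told apart, so the levels of these mitochondrial genes are uncertain.

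The other copies that span nearly the whole of their gene were also above it. Gm10925, the copy of mt-Atp6, was at 1448 TPM with shETV4 and 2820.3 TPM with shRFP. Gm28437, the copy of mt-Co3, was at 2153 TPM with shETV4 and 3682 TPM with shRFP. Gm28438, the copy of mt-Nd3, was at 1169.9 TPM with shETV4 and 2174 TPM with shRFP, and Gm10222, the copy of mt-Nd4l, at 1615 TPM with shETV4 and 3189.6 TPM with shRFP. In all of these pairs the nuclear record held a smaller part of the joint TPM with shETV4 than with shRFP. For mt-Nd3 that part was 76.6% with shETV4 and 85.5% with shRFP, and for mt-Nd4l 78.4% with shETV4 and 85.3% with shRFP.

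The copies of parts of genes had unlike values. Gm29216, which covers 31.3% of mt-Co1, was at 1662 TPM with shETV4 and 1733 TPM with shRFP, a difference of -0.06. Gm28439, identical to 876 of the 1378 bases of mt-Nd4, was listed at 0 in both libraries. Beyond the chromosome 1 block, 22 further nuclear records matched a mitochondrial transcript over at least 100 bases, at identities from 80.6% to 97.6%. None of these exceeded 0.38 TPM with shETV4 or 0.30 TPM with shRFP, and 18 of them were listed at 0 in both. Gm13340, shown above, was at 0.13 TPM with shETV4 and listed at 0 with shRFP.

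**Figure D2:**
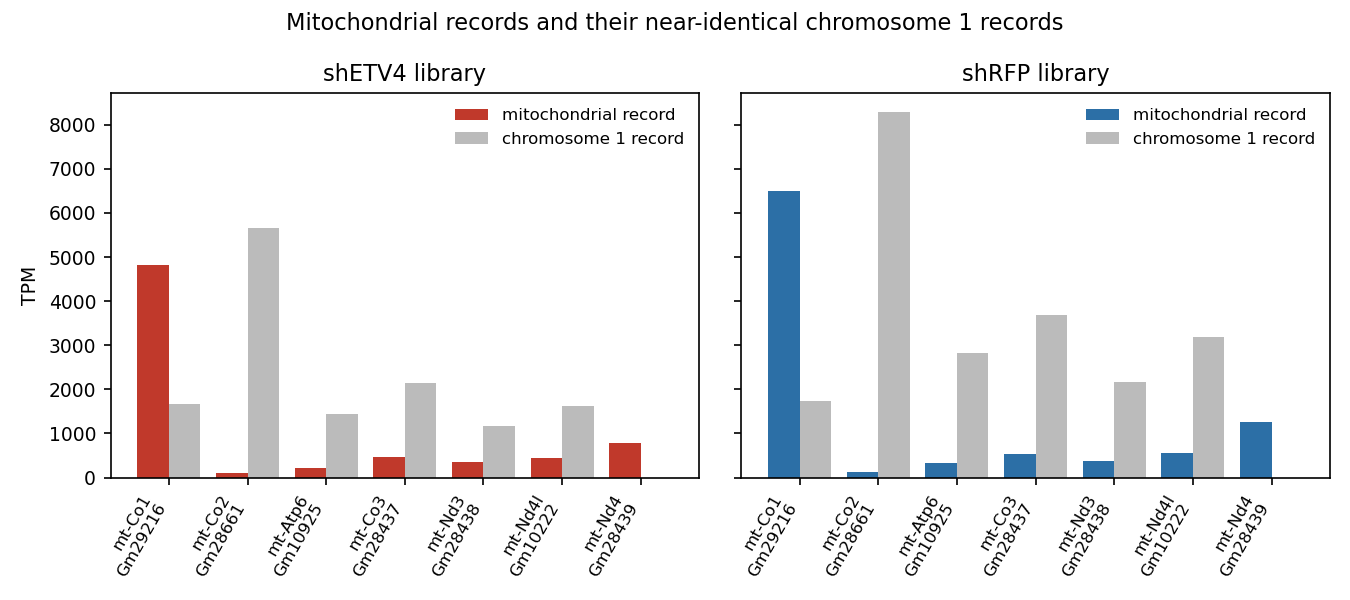
TPM of 7 mitochondrial records and of the chromosome 1 record that copies each of them, with the shETV4 library on the left and the shRFP library on the right. In both libraries the chromosome 1 record stands above the mitochondrial one for mt-Co2, mt-Atp6, mt-Co3, mt-Nd3 and mt-Nd4l and below it for mt-Co1 and mt-Nd4.

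Adding each chromosome 1 record to its mitochondrial gene, weighted by annotated length, reduced the question of how reads were divided within a pair. It did not remove that question, since TPM depends on effective lengths, which the sources used here do not give. The choice to add them was made after the values were seen. mt-Co2 then came to 5745 TPM with shETV4 and 8384 TPM with shRFP, second to mt-Atp8, and the ratio of the highest to the lowest gene of the class was 8.65 with shETV4 and 14.8 with shRFP. The 5 genes with a copy of nearly their whole length lay at 1517 to 5745 TPM with shETV4 and 2523 to 8384 TPM with shRFP, in place of 100.3 to 465 TPM with shETV4 and 126 to 549 TPM with shRFP on their own records.

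Their differences lay further below 0 on the joint values. mt-Nd3 was at -0.73 in place of -0.04, mt-Nd4l at -0.86 in place of -0.30, mt-Co3 at -0.69 in place of -0.22, mt-Atp6 at -0.93 in place of -0.65 and mt-Co2 at -0.55 in place of -0.33. mt-Co1 stood at -0.40 in place of -0.43, and mt-Nd4 kept its value since its copy was at 0. The median of the class was -0.69, with 8 of 13 genes lower at 1.5-fold and none at 2-fold. The 6 genes with no near-identical annotated record, mt-Nd1, mt-Nd2, mt-Atp8, mt-Nd5, mt-Nd6 and mt-Cytb, had a median of -0.60 on their own records. Of these, mt-Atp8 is not free of the question. It lies between mt-Co2 and mt-Atp6, which both have records in the block, and Gm10925 holds the 43 bases it shares with mt-Atp6.

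**Figure D3:**
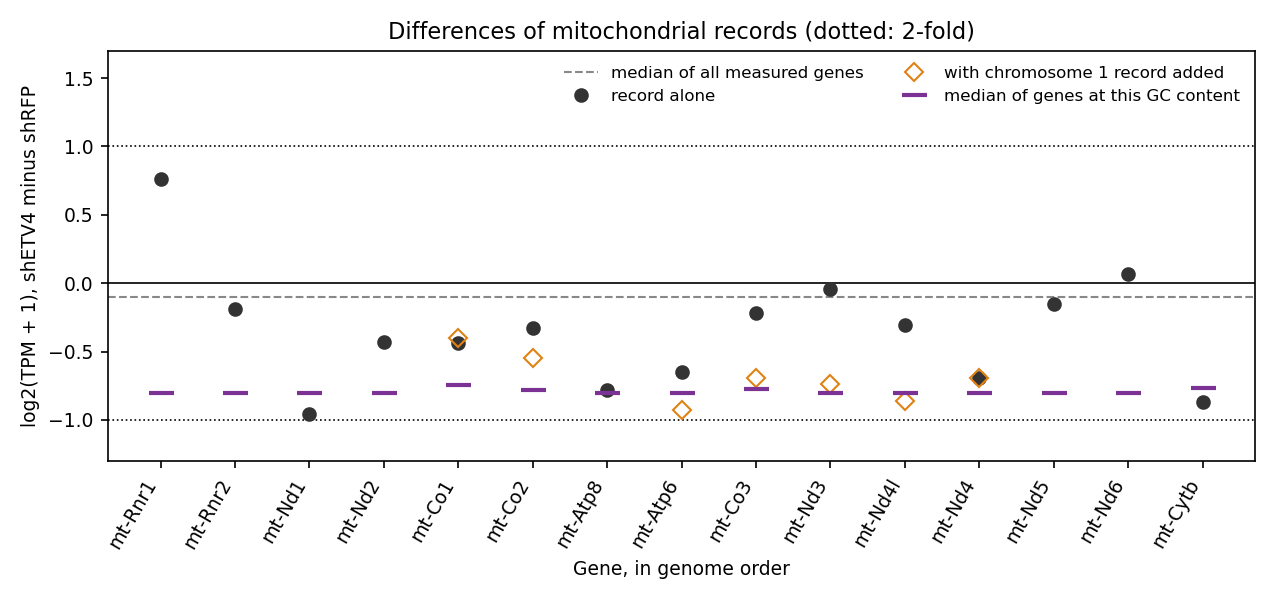
Difference on the log2(TPM + 1) scale, shETV4 minus shRFP, for each rRNA and protein-coding gene in genome order, for the record alone (filled circles) and with the chromosome 1 record added (open diamonds). The dashed line is the median of all measured genes, -0.10, and dotted lines mark 2-fold, which no gene passes. The short bars are the median of genes at like GC content. For the 10 of 15 genes below 38.0% GC, the bars hold the median of the lowest bin of GC content.

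The rRNA class went both ways. mt-Rnr1, the RNA of the small mitochondrial ribosomal subunit, was at 511 TPM in the shETV4 library and 301 TPM in the shRFP library, a difference of 0.76. mt-Rnr2, the RNA of the large subunit, was at 117 TPM with shETV4 and 133 TPM with shRFP, a difference of -0.18. The class median was 0.29, neither gene was called at 2-fold, and mt-Rnr1 was higher at 1.5-fold, as were 8.64% of all measured genes. The ratio of mt-Rnr2 to mt-Rnr1 was 0.229 with shETV4 and 0.442 with shRFP, although the genes lie on the same precursor with only mt-Tv between them. Together the rRNAs equalled 3.31% of the TPM of the protein-coding class with shETV4 and 1.51% with shRFP. Whether the library kit's RNA selection was by poly(A) or by rRNA removal is unstated in the sources used here, and both bear on levels of these RNAs.

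The tRNA class gave no measurement. All 22 genes, 14 on the plus strand and 8 on the minus strand, were listed at 0 in both libraries, although 16 of them border a protein-coding or rRNA gene that was measured. Their transcripts are 59 to 75 bases long, below the length of the shortest measured member, mt-Atp8. The shortest and the longest are shown for scale, with no capitals.
mt-Ts2, a serine tRNA, chrM:11613-11671, plus strand: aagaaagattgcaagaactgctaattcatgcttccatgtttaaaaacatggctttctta
mt-Tl1, a leucine tRNA, chrM:2676-2750, plus strand: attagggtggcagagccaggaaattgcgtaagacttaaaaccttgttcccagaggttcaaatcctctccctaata

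A value of 0 in a file without counts can be a failed estimate, so these zeros do not show that the tRNAs were absent. No difference could be formed for them.

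Base composition moved with the differences. The measured mitochondrial transcripts are poor in GC, from 31.9% in mt-Atp8 to 41.1% in mt-Nd4l, against a median of 50.7% over all measured genes. The running median of the difference over GC content stood between -0.81 and -0.75 at the GC content of the protein-coding members. With it subtracted from the differences of the records alone, the class median was 0.38, and 11 of 13 genes lay above 0. The exceptions were mt-Nd1 at -0.15 and mt-Cytb at -0.10. mt-Rnr1 then stood at 1.57, past 2-fold, as did 3.99% of all genes upward and 2.31% downward, and mt-Rnr2 at 0.62. On the joint values mt-Atp6 at -0.93 and mt-Nd4l at -0.86 also lay below the running median, which was -0.81 and -0.80 at their GC content. The adjusted class median and the count above 0 thus depend on how reads were divided. Support for the curve of the running median is thin, since 10 of the 15 measured members are poorer in GC than 38.0%, the median of the lowest bin, below which its value was held constant. The part of base composition in the differences was not tested.

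**Figure D4:**
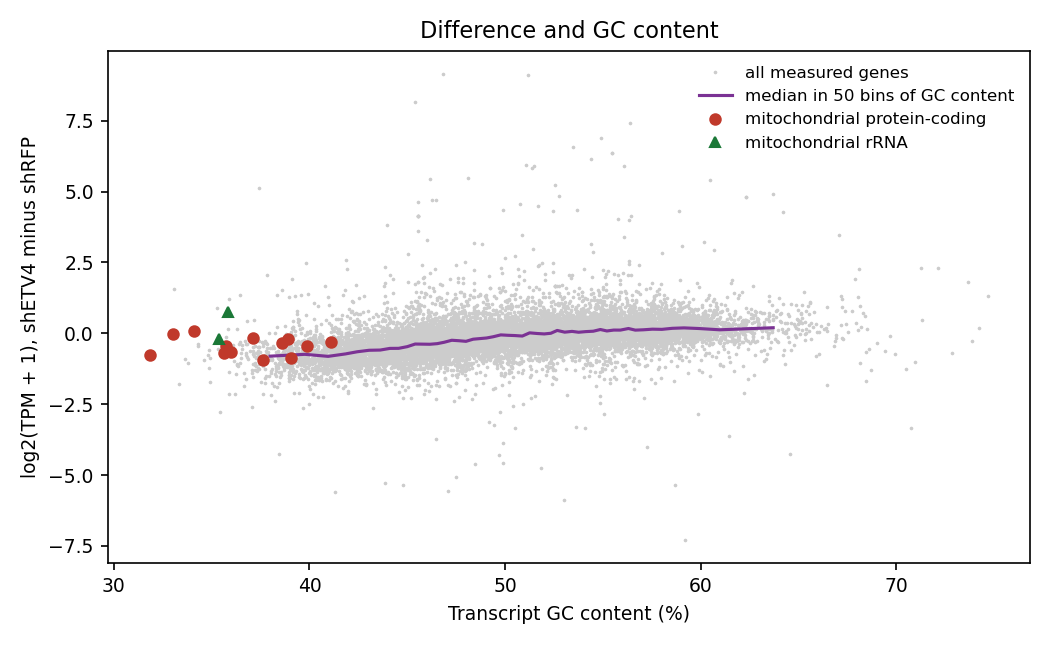
Difference on the log2(TPM + 1) scale, shETV4 minus shRFP, against transcript GC content in percent for all measured genes (grey points), with the median in 50 bins of GC content as a line. Mitochondrial protein-coding genes (circles, records alone) and rRNA genes (triangles) lie at the GC-poor end. The line starts at 38.0% GC, and 10 of these 15 genes lie to the left of it. With the first value of the line held constant for those 10, 11 of 13 protein-coding genes and both rRNA genes lie above it.

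The nuclear genes for the remaining subunits of the same complexes had differences near 0. All 79 listed subunits of complexes I to IV and the ATP synthase were measured, with a median of 0.08, 52 above 0, none called higher and 1 called lower. Among all measured genes 3.39% were called higher and 7.06% lower, and 58.3% lay below 0. For complex I the median was -0.30 over the 7 mitochondrial genes and 0.12 over the 37 nuclear genes. The called gene was Ndufa5, an accessory subunit of complex I, at 21.1 TPM with shETV4 and 151 TPM with shRFP. For complex IV the medians were -0.33 over 3 mitochondrial genes and 0.13 over 11 nuclear genes. For the ATP synthase they were -0.71 over 2 mitochondrial genes and 0.08 over 18 nuclear genes, and in complex III mt-Cytb at -0.87 stood beside -0.06 over 9 nuclear genes. All 4 subunits of complex II, which has none in the mitochondrial genome, lay within 2-fold at a median of 0.01. The nuclear subunit genes had a median GC content of 51.5%, so they also differ from the mitochondrial genes in composition. On the records alone, the order of the sets turned for complexes I and IV after subtraction of the GC median. The adjusted medians for complex I were 0.50 over the mitochondrial and 0.22 over the nuclear genes. For complex IV they were 0.46 over the mitochondrial and 0.26 over the nuclear genes. The order did not turn for the ATP synthase, at 0.09 over the mitochondrial and 0.19 over the nuclear genes. Nor did it turn for complex III, where mt-Cytb stood at -0.10 beside 0.14 over the nuclear genes. Over all complexes the adjusted medians were 0.38 for the 13 mitochondrial genes on the records alone and 0.17 for the 79 nuclear genes. With the chromosome 1 records added, mt-Nd3, mt-Nd4l, mt-Co2 and mt-Co3 lay further below 0. On those joint values the order turned neither for complex I or IV nor over all complexes. For complex IV both adjusted medians then lay close together. The gap between the sets was not tested.

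**Figure D5:**
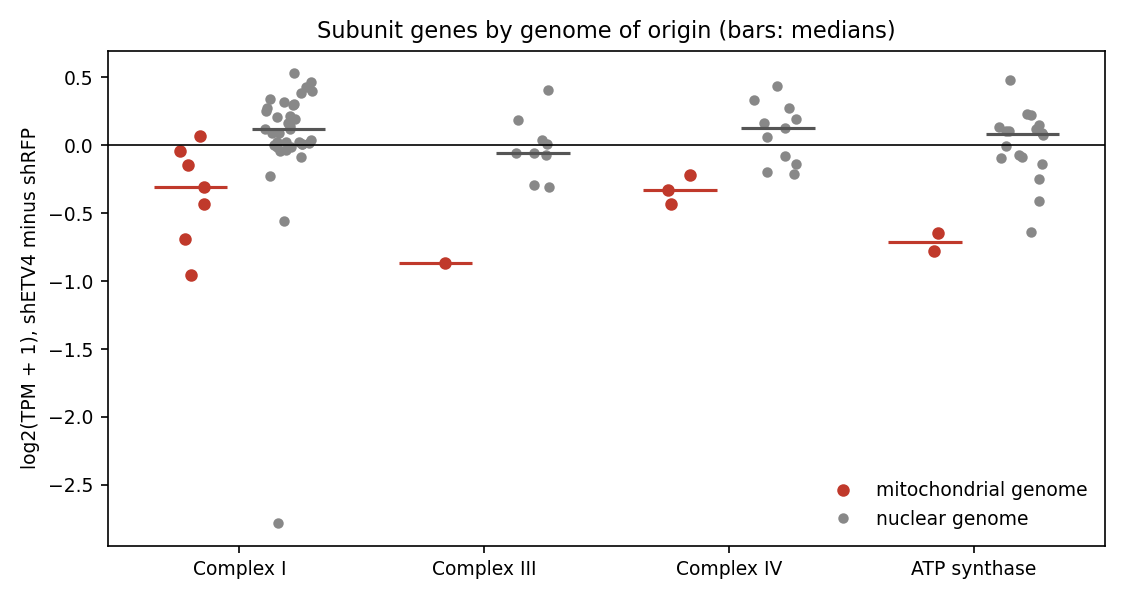
Difference on the log2(TPM + 1) scale, shETV4 minus shRFP, of subunit genes of 4 respiratory complexes, with mitochondrial genes on the left and nuclear genes on the right in each complex; points are genes and bars medians. The mitochondrial medians lie below 0 in each complex without GC adjustment, and the nuclear gene far below the others in complex I is Ndufa5 at -2.78.

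Nuclear genes that act on mitochondrial DNA and RNA had 1 or 2 members called lower in each of 4 lists, shares near the 7.06% called lower among all measured genes, and none called higher. In the list for transcription and maintenance of mitochondrial DNA, all 25 genes were measured, 2 were called lower and the median was -0.14. Polrmt was at 29.7 TPM with shETV4 and 21.8 TPM with shRFP, a difference of 0.43, and Tfam at 28.4 TPM with shETV4 and 31.4 TPM with shRFP, a difference of -0.14. After subtraction of the GC median Polrmt was at 0.29 and Tfam, with its sign turned, at 0.45. The called genes belong to the Mterf family of mitochondrial transcription and ribosome factors. Mterf2 was at 1.36 TPM with shETV4 and 7.47 TPM with shRFP, and Mterf3 at 7.08 TPM with shETV4 and 16.2 TPM with shRFP. Mterf3 was at -0.42 after subtraction of the GC median, within 2-fold, and Mterf2 at -1.58.

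Genes of mitochondrial RNA cleavage and stability had a median of -0.37, with 18 of 23 below 0 and 2 called lower. Over all measured genes the median was -0.10, and 58.3% lay below 0. After subtraction of the GC median, the median of this list was -0.0008. Trmt10c, the methyltransferase subunit of the enzyme that cuts the 5′ ends of mitochondrial tRNAs, was at 4.55 TPM with shETV4 and 10.5 TPM with shRFP. Ptcd3, a protein of the small mitochondrial ribosomal subunit, was at 24.7 TPM with shETV4 and 60.8 TPM with shRFP. Both were within 2-fold after subtraction of the GC median, at -0.37 and -0.56. Lrpprc, which binds and stabilises mitochondrial mRNAs, was at 25.8 TPM with shETV4 and 46.5 TPM with shRFP. Its difference was -0.83, and -0.55 after subtraction of the GC median.

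Among 27 genes that modify mitochondrial tRNAs or rRNAs the median was -0.05 and 2 were called lower. These were Trmt10c, counted here too, and Trmt5, a tRNA methyltransferase at 3.38 TPM with shETV4 and 7.90 TPM with shRFP, which was at -0.49 after subtraction of the GC median. Of 14 regulators of mitochondrial biogenesis 11 were measured, with a median of -0.31, and of -0.12 after subtraction of the GC median. Gabpa, an ETS-family factor that activates many respiratory genes, was called lower at 7.75 TPM with shETV4 and 19.6 TPM with shRFP. It too was within 2-fold after subtraction of the GC median, at -0.46.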

How the data were processed

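Total RNA libraries of LPC-HRas cells were made with an Illumina TruSeq RNA kit, per the labels' protocols. The authors deposited TPM, 1 value per gene and library; the unit was read from the column totals, 999870.3 for shETV4 and 999999.77 for shRFP. HISAT2, RSEM and GRCm38.p4 are named without roles in the submitters' processing notes. Depth is unknown, so no counting interval is given. Records without a symbol (2.67% of TPM with shETV4, 1.13% with shRFP) were left out. GENCODE M21 on GRCm38 gave classes, coordinates, transcripts, lengths and GC content, with medians over a gene's transcripts, for 99.5% of named records. Nuclear copies were found with BLAST+ 2.17.0 (word size 11, identity of 80% or more, 100 aligned bases or more). Those with identity of 99% or more over 90% or more of the record were called near-identical. The GC adjustment used 50 bins. Python 3.11.15, numpy 2.4.6, pandas 2.3.3 and matplotlib 3.10.9 were used, and the procedure was tested on simulated data. Ndufb1 and Usmg5 were read under the symbols Ndufb1-ps and Atp5md, and of 2 Atp5o records the one at 0 was left out. All mitochondrial rRNA and protein-coding genes are named, as are Etv4, Polrmt, Tfam, Lrpprc, every near-identical record and up to 3 called genes a list; Alb, Spp1 and Gm13340 were chosen after their values were seen. Members and lists were chosen with earlier results of these data known.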

Additional observations from a re-analysis of the deposited data

How the results depend on the processing

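With 1 library per group no replicate could be left out, and no paired analysis was possible because each group has 1 sample. Direction and side of the 2-fold threshold held for Etv4, for the class medians and for the nuclear subunits under the pseudocounts, filters, scales and gene sets tried. On the records alone, the GC adjustment moved the protein-coding median to 0.38 and the rRNA median to 1.09, with 1 rRNA gene called higher. The alternative scales shifted all differences by less than 0.1 (median log2 ratio -0.07, trimmed mean -0.08) and took mt-Nd3 to 0.03 and 0.04; without mitochondrial genes in the total the shift was -0.01. At 1.5-fold 5 protein-coding genes were lower and 1 rRNA gene was higher. No tRNA gene gave a median under any filter. With chromosome 1 records added, the protein-coding share of TPM was 3.27% with shETV4 and 5.08% with shRFP, and mt-Atp8 held 21.4% of the class with shETV4 and 23.4% with shRFP. Over all genes 439 were higher and 916 lower. The higher and lower counts were 676 and 1461 with pseudocount 0.1, 167 and 267 with pseudocount 5, 1121 and 2593 at 1.5-fold, and 162 and 162 at 3-fold. They were 252 and 690 at 5 TPM, 250 and 737 among protein-coding genes with the mitochondrial members, and 516 and 299 after GC adjustment, where the balance of higher and lower turned.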
